A study of Homo sapiens with 2 samples.

Results

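The Notch pathway and endocrine commitment genes described here were 10 genes, found by symbol among the 33694 genes of the count tables: the receptors NOTCH1 and NOTCH2, the ligands JAG1, DLL1 and DLL3, the effectors HES1, HES4 and HES6, and the proneural factors NEUROG3 and NEUROD4. Each symbol matched 1 row of the tables. The cells were stem-cell-derived beta cell clusters (eBCs) made from iSOX9KO cells, a Mel1-INS-GFP human embryonic stem cell line in which doxycycline (DOX) induces Cas9 against SOX9. By the study's methods, work after the first characterisation used 1 clone of this line. One library of single cells came from eBCs given no DOX and another from eBCs given DOX at 2 ug/ml from day 12 of differentiation, so there was 1 library per condition and no difference between conditions could be tested. Both arms share the methods of the study, in which the medium after that day held a gamma-secretase inhibitor, a compound that blocks Notch cleavage, and in which live cells high for the INS-GFP reporter were sorted and reaggregated, a gate that sets how many cells of each class are seen. No such inhibitor is listed for the later eBC medium.

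Notch receptors are read out between touching cells. A ligand on the neighbouring cell leads to cleavage of the receptor, and the released intracellular domain joins the DNA-binding protein RBPJ to switch on HES and HEY genes, which encode repressors. In the developing pancreas, cells with active Notch stay progenitors or become duct, while cells that escape it express the proneural factor NEUROG3 briefly and commit to an endocrine fate.

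Levels are unique molecular identifiers (UMIs) summed over a class and divided by the class total, per 1000000 (CPM), and their 95% intervals are exact Poisson limits. Ratios between sums carry exact conditional binomial 95% intervals. All intervals cover counting error only and not the spread between cultures. Those of levels and ratios count each UMI as independent, so they also leave out the gathering of UMIs in single cells. UMI counts are not scaled to transcript length, so levels are compared between classes for 1 gene and not between genes.

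The libraries held 550240855 UMIs in 30288 barcodes (no DOX) and 520849221 UMIs in 31817 barcodes (DOX), and 369 barcode sequences occurred in both. After filtering, 44926 cells formed 7 clusters, of which 6 could be named from markers: Beta-like (7032 cells without and 9889 with DOX), Beta cell progenitor-like (5308 and 5313), Alpha-like (5052 and 4124), Delta-like (2645 and 1940), Proliferating progenitor-like (475 and 493) and Duct-like (153 and 178). The remaining cluster, led by mitochondrial RNA at a median of 1886 and 2061 UMIs per cell, was left unnamed. The genes of the lists described here were kept out of the clustering. Of 12 markers per class, all 12 were at least 2-fold above the other cells in both libraries for every class except Beta-like, with 10 of 12. The study took these markers from the same libraries and they gave the classes their names here, so these counts are no independent check of the names. The Duct-like cells also held RNA of other lineages: a summed 612 and 391 CPM over 4 hepatic genes (APOA2 at 405 and 147 CPM), 40.8 and 47.5 CPM over 6 acinar genes with PNLIP at 0, 19.6 and 13.8 CPM over 6 mesenchymal genes with DCN at 0, 36 and 22 CPM over 4 pluripotency genes with POU5F1 at 0, and 2.4 and 2.29 CPM over 4 endothelial genes with PECAM1 and CDH5 at 0. LIN28A, at 34.8 and 19.7 CPM, gave most of the pluripotency sum. Other classes held such RNA too: hepatic genes summed to 190 and 170 CPM in Alpha-like and 174 and 60.7 CPM in Beta-like cells. In Delta-like cells mesenchymal genes summed to 11.9 and 16.7 CPM and endothelial genes to 11.2 and 14.1 CPM. The acinar and pluripotency sums were lower in every other named class. The part of RNA of other lineages in the results below was not tested.

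SOX9, the targeted gene, had 3 CPM over all cells kept where the label gives no DOX and 3.78 CPM where it gives DOX, and 252 and 283 CPM among Duct-like cells, so it was lower under the DOX label in neither. Over the endocrine classes it had 1.03 and 0.957 CPM, a log2 ratio of -0.11 (-0.35 to 0.13). A deletion by Cas9 need not remove the transcript, so these levels do not check the edit. Names of libraries here follow the labels alone, and each pair of values below gives the library labelled no DOX first and the library labelled DOX second.

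RefSeq promoter windows of 300 bases (250 before and 50 after the start site, GRCh38.p14) were available for 8 of the 10 members, all except DLL1 and DLL3. The core of the site bound by RBPJ, GTGGGAA on either strand, was found in 6.25% of 35116 promoter windows, and among the members in HES1 and HES4. The HES1 window (chr3:194135898-194136197, plus strand) and the HES4 window (chr1:1000048-1000347, minus strand) are shown because these effectors had their highest levels in the same class, with the match in capitals:
HES1: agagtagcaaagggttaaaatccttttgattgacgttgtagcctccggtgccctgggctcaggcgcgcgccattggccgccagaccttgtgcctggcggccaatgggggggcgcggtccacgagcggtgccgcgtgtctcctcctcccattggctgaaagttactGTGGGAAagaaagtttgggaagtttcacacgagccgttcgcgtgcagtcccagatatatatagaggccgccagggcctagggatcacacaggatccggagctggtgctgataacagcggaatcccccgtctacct
HES4: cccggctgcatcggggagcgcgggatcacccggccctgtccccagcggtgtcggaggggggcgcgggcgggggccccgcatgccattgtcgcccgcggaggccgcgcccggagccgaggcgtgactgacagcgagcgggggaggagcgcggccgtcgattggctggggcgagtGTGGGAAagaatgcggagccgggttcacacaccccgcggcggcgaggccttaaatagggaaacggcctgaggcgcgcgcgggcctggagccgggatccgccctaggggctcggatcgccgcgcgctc

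The match began 85 bases before the HES1 start site and 77 bases before that of HES4, on the gene's own strand in both. The longest run common to both windows was tgtgggaaagaa, 12 bases that hold the match, and 8 of the 35116 windows contained this run on either strand. The N box, CACNAG, a letter pattern bound by HES repressors, occurred in 38% of windows, at 4 places in the HES1 window, at 2 in that of NOTCH1 and at 1 each in those of NOTCH2 and NEUROD4. A second HES pattern, CACGNG, occurred in 30.5% of windows, at 4 places in the HES1 window and at 1 each in those of NOTCH2, JAG1 and NEUROG3. The patterns share letters, and 2 of the HES1 places and the NOTCH2 place matched both.

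HES6 and NEUROD4, which had their highest levels in progenitor classes, carried E boxes (CANNTG), the letters that proneural factors bind. E boxes were common, in 68.7% of windows, and none of the windows of NOTCH1, NOTCH2, JAG1, HES1 and HES4 held one. The NEUROG3 window held 1. The HES6 window (chr2:238239989-238240288, minus strand) held 1 and the NEUROD4 window (chr12:55019724-55020023, plus strand) held 2, in capitals:
HES6: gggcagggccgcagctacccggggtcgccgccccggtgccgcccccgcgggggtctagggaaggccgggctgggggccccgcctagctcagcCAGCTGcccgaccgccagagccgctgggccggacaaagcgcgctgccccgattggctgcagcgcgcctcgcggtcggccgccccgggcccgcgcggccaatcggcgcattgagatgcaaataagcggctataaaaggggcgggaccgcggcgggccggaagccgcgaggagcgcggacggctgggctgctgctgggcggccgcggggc
NEUROD4: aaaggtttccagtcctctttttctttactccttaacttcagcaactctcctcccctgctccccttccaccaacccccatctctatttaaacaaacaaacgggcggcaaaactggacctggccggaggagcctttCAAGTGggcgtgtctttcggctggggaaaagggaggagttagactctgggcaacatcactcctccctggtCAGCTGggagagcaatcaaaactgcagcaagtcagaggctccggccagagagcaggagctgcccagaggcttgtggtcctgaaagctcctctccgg

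These matches are letters in a window and no evidence of binding.

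Receptors, the ligand JAG1 and the effectors HES1 and HES4 were highest in the Duct-like cells, while the other ligands were not. The study identified its ductal or progenitor cells partly by high HES1. HES1 was kept out of the markers and clustering here. The markers came from the study's clusters, however, so high HES1 in this class is no independent finding. Of the 8 members with at least 5 CPM in Duct-like cells or over the endocrine classes (the Alpha-like, Delta-like, Beta-like and Beta cell progenitor-like cells together), 5 stood at least 2-fold higher among Duct-like cells of each library: NOTCH1, NOTCH2, JAG1, HES1 and HES4. Over all 11380 genes compared in this way, 17.2% were at least 2-fold higher. DLL3 and NEUROD4 were at least 2-fold lower in Duct-like cells, against 14.8% of all genes, HES6 lay within 2-fold, and DLL1 and NEUROG3 did not reach 5 CPM in either. With doublets kept, the NEUROD4 log2 ratio of -3.42 over both libraries became -0.98, under 2-fold, and that of DLL3 went from -2.85 to -1.60.

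**Figure D1:**
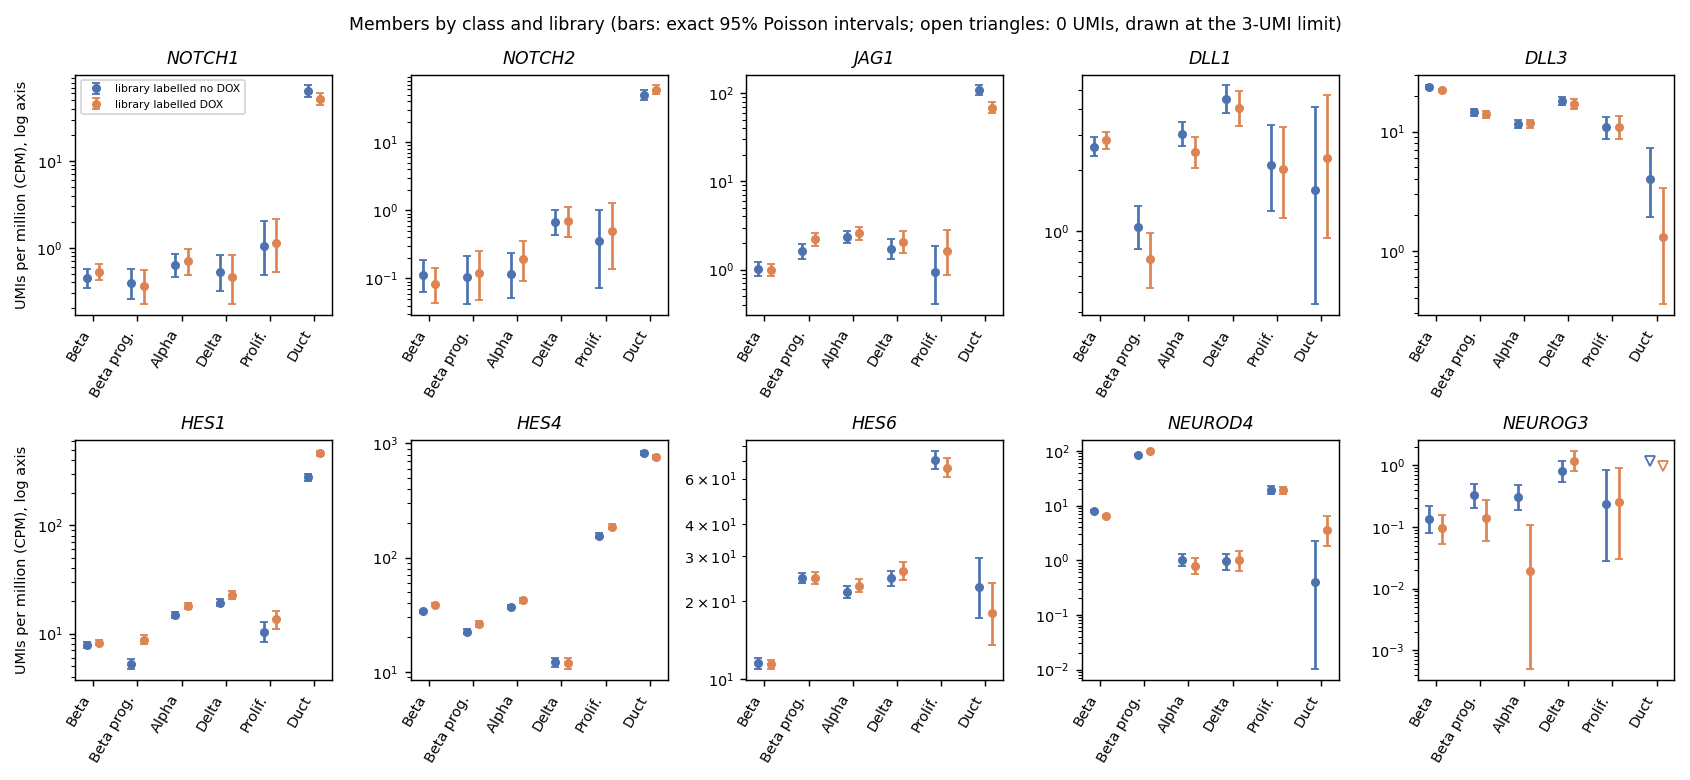
Level of each of the 10 members (y axis, CPM on a log axis, own scale per panel) in the 6 named classes (x axis) of the library labelled no DOX (blue) and that labelled DOX (orange), with exact 95% Poisson intervals. NOTCH1, NOTCH2, JAG1, HES1 and HES4 stand highest in Duct-like cells, HES6 in Proliferating progenitor-like cells and NEUROD4 in Beta cell progenitor-like cells, and NEUROG3, without a UMI in Duct-like cells, is drawn there at the limit of 3 UMIs.

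Both receptors had their highest levels by far in the Duct-like cells, which held 318 of the 638 NOTCH1 UMIs and 304 of the 414 NOTCH2 UMIs of all cells kept. NOTCH1 (ENSG00000148400, chromosome 9, 136494433 to 136546048, minus strand) was at 63.6 CPM (54.1 to 74.2) and 52.1 CPM (44.3 to 60.9) there. In the other 5 classes it was between 0.364 and 1.14 CPM, and none of these neighbours in the order of levels had separate intervals. The log2 ratio of Duct-like over the endocrine classes was 7.03 without and 6.64 with DOX.

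NOTCH2 (ENSG00000134250, chromosome 1, 119911553 to 120100779, minus strand) was at 49.6 CPM (41.2 to 59.1) and 59 CPM (50.7 to 68.3) in Duct-like cells. Delta-like cells followed at 0.671 and 0.705 CPM, from 24 and 17 UMIs. Against Beta-like cells, at 0.114 and 0.0833 CPM, this Delta-like level was higher by a log2 ratio of 2.82 (2.09 to 3.56, both libraries). With every cell thinned to 5000 UMIs, 23.1% and 20.3% of Duct-like cells held a NOTCH1 UMI, against 0.21% and 0.334% of Beta-like cells, and without thinning 58.8% and 50% of Duct-like cells did.

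The ligands parted. JAG1 (ENSG00000101384, chromosome 20, 10637684 to 10673999, minus strand), a ligand of the Jagged family, followed the receptors. It was at 108 CPM (95.4 to 122) and 68.5 CPM (59.5 to 78.4) in Duct-like cells, against 0.944 to 2.58 CPM in the other classes. Alpha-like cells came next at 2.37 and 2.58 CPM, above Beta-like cells by a log2 ratio of 1.29 (1.05 to 1.53).

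DLL3 (ENSG00000090932, chromosome 19, 39498895 to 39508481, plus strand), an atypical Delta ligand known to act within the cell that makes it, ran the other way. Beta-like cells had 23.6 CPM (22.7 to 24.4) and 22.2 CPM (21.5 to 23), then Delta-like cells 18 and 17.1 CPM, Beta cell progenitor-like cells 14.5 and 14 CPM, Alpha-like cells 11.6 and 11.7 CPM, and Proliferating progenitor-like cells 10.9 CPM in both. Duct-like cells were last at 4 CPM (1.92 to 7.35) and 1.31 CPM (0.357 to 3.36), from 10 and 4 UMIs. The order was alike in both libraries, and the Alpha-like and Proliferating progenitor-like intervals overlapped. Thinned, 11.2% and 10.6% of Beta-like cells held a DLL3 UMI, against 4 of 147 and 0 of 177 Duct-like cells, the latter allowing a share at that depth of up to 1.69% by a limit of 3 counts and 2.06% by the exact binomial interval. Without thinning, 9 of 153 (5.88%) and 4 of 178 (2.25%) Duct-like cells held one.

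DLL1 (ENSG00000198719, chromosome 6, 170282206 to 170306565, minus strand), the Delta ligand of lateral inhibition, stayed under 5 CPM in every class. It was highest in Delta-like cells at 4.5 CPM (3.83 to 5.25) and 4.06 CPM (3.3 to 4.95). Among the endocrine classes it was lowest in Beta cell progenitor-like cells at 1.05 and 0.727 CPM, below Beta-like cells by a log2 ratio of -1.60 (-1.90 to -1.31). Alpha-like, Beta-like, Proliferating progenitor-like and Duct-like cells lay between, each overlapping its neighbour in that order.

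The effectors HES1 and HES4 shared the Duct-like maximum but not the rest of their order. HES1 (ENSG00000114315, chromosome 3, 194136148 to 194138732, plus strand), the best known Notch-induced repressor of the pancreas, was at 279 CPM (258 to 300) and 462 CPM (438 to 487) in Duct-like cells, with separate intervals. Delta-like cells followed at 19.3 and 22.7 CPM, Alpha-like cells at 14.8 and 18 CPM, Proliferating progenitor-like cells at 10.4 and 13.5 CPM, Beta-like cells at 7.77 and 8.24 CPM, and Beta cell progenitor-like cells at 5.2 and 8.8 CPM. The last pair changed places between the libraries. The log2 ratio of Duct-like over the endocrine classes was 4.78 without and 5.35 with DOX.

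HES4 (ENSG00000188290, chromosome 1, 998962 to 1000172, minus strand), a HES gene that mice lack, was at 826 CPM (791 to 863) and 758 CPM (728 to 790) in Duct-like cells. It differed from HES1 in its next class, the Proliferating progenitor-like cells, at 156 CPM (147 to 164) and 187 CPM (178 to 197). There it exceeded the endocrine classes by a log2 ratio of 2.42 (2.36 to 2.48), whereas HES1 differed from them by 0.15 (-0.06 to 0.36). HES4 was lowest in Delta-like cells at 12.1 and 11.9 CPM, the class in which HES1 was second, and the Delta-like over Alpha-like log2 ratio was -1.70 (-1.82 to -1.59) for HES4 and 0.35 (0.25 to 0.46) for HES1.

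HES4 RNA was present in nearly every Duct-like cell, while HES1 RNA was uneven. Thinned to 5000 UMIs, 136 of 147 Duct-like cells (92.5%) without and 172 of 177 (97.2%) with DOX held a HES4 UMI, against 5.59% and 5.1% of Delta-like cells, the lowest class. Proliferating progenitor-like cells came next to Duct-like cells, at 46.7% and 55.9%. For HES1 the shares were 51.7% (43.3 to 60) and 67.2% (59.8 to 74.1), against 2.72% and 2.7% of Beta-like cells. Median depth was 14203 and 14704.5 UMIs per Duct-like cell, 13386 and 12007.5 per Delta-like cell, and 17981 and 14745 per Beta-like cell. The part of free RNA in the low shares was not tested. With both libraries pooled, 195 thinned Duct-like cells held a HES1 UMI, of which 20.5% held a NOTCH1 UMI and 27.2% a JAG1 UMI. Among the 129 without, 23.3% and 31.8% did, with overlapping intervals. The libraries differed in these shares, JAG1 being found in 32.7% and 26% of thinned Duct-like cells, and the part of this in the pooled values was not tested. For SOX9 the shares stood apart in 1 library, without a test: 76.3% (65.2 to 85.3) of cells with and 52.1% (39.9 to 64.1) without a HES1 UMI held it where the label gives no DOX, and 68.9% (59.8 to 77.1) and 70.7% (57.3 to 81.9) where it gives DOX.

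HES6, which encodes a HES-like protein that opposes HES1, was highest in the Proliferating progenitor-like cells. HES6 (ENSG00000144485, chromosome 2, 238238267 to 238240662, minus strand) was at 71 CPM (65.5 to 77) and 66.2 CPM (60.7 to 72.2) in Proliferating progenitor-like cells. Delta-like cells had 24.6 and 26.3 CPM, Beta cell progenitor-like cells 24.7 CPM in both, Alpha-like cells 21.8 and 23 CPM and Duct-like cells 22.8 and 18 CPM, and Beta-like cells were lowest at 11.5 and 11.4 CPM. Of 5 members with at least 5 CPM in Proliferating progenitor-like cells or over the endocrine classes, HES4 and HES6 were at least 2-fold higher in the former in both libraries, against 10.2% of all genes compared. None was at least 2-fold lower, against 1.64%. The Proliferating progenitor-like class held 968 cells, 10877 with doublets kept and 500 with 15 neighbours without balancing. This comparison was not recomputed under those alternatives. Within that class 29.2% (25.2 to 33.4) of 500 thinned cells with a UMI of MKI67, a marker of cycling cells, and 27.7% (23.4 to 32.4) of 404 without held one of HES6.

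NEUROD4, a proneural factor that acts downstream of NEUROG3, was highest in the Beta cell progenitor-like cells. NEUROD4 (ENSG00000123307, chromosome 12, 55019974 to 55030017, plus strand) was at 86.1 CPM (83.9 to 88.3) and 98.9 CPM (96.3 to 101) among Beta cell progenitor-like cells. Proliferating progenitor-like cells had 19.2 and 19 CPM and Beta-like cells 7.96 and 6.35 CPM. Alpha-like cells, at 1.02 and 0.795 CPM, and Delta-like cells, at 0.951 and 0.995 CPM, had overlapping intervals, and Duct-like cells had 1 UMI without and 11 UMIs with DOX. Thinned, 29.9% and 32.3% of Beta cell progenitor-like cells held a UMI, against 0.518% and 0.358% of Alpha-like cells.

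NEUROD4 and HES6 were the members at least 2-fold higher in Beta cell progenitor-like than in Beta-like cells in both libraries, 2 of the 5 with at least 5 CPM in either class, against 24.4% of 10867 genes. None of the 5 was at least 2-fold lower, against 3.4%. This comparison leaned one way, with the median gene higher by a log2 ratio of 0.59. Insulin took 19.4% of UMIs in Beta-like and 6.6% in Beta cell progenitor-like cells, and its part in the lean was not tested. Relative to that median the NEUROD4 log2 ratio of 3.70 became 3.11 and that of HES6 fell from 1.11 to 0.52, under 2-fold, while DLL3 and HES4, at -1.27 and -1.19, were then at least 2-fold lower. On that scale 7.61% of genes were higher and 7.81% lower.

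Finer clusters resolved NEUROD4 further. At Leiden resolution 0.5 the Beta cell progenitor-like cluster led by CA2, TAC1 and PHOX2A (467 and 734 cells) had 175 and 193 CPM of NEUROD4, that led by NTRK3 and TRIM67 81.3 and 85 CPM, and an unnamed cluster led by GPC3 and SIM1 72.8 and 88.2 CPM. The CA2-led cluster also had the highest HES1 among the 3, at 16.5 and 20.3 CPM against 4.66 and 6.97 CPM in the NTRK3-led cluster, and the highest HES6, at 43.7 and 34.7 CPM. It held no NEUROG3 UMI, which with intervals up to 0.822 and 0.577 CPM does not set it apart from the NTRK3-led cluster at 0.159 and 0.0599 CPM.

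**Figure D2:**
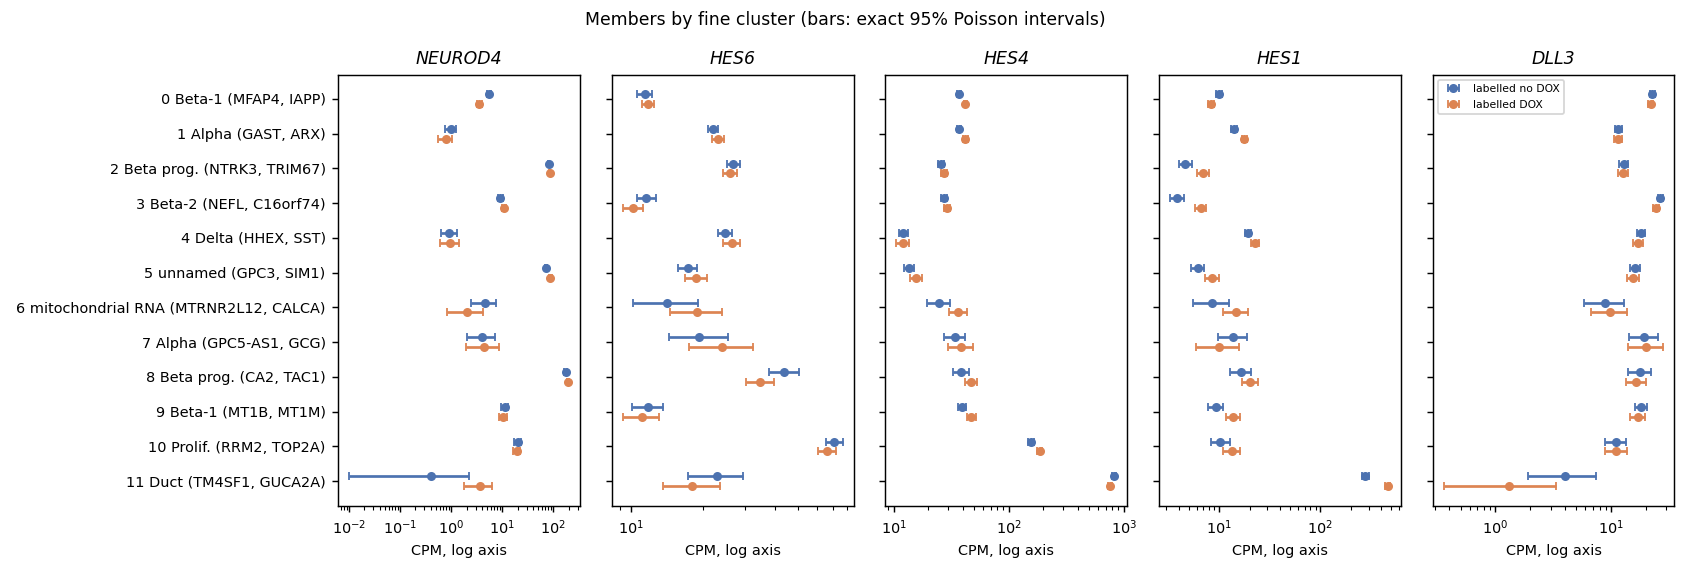
Levels of NEUROD4, HES6, HES4, HES1 and DLL3 (x axis, CPM on a log axis) in the fine clusters with at least 100 cells in each library (y axis, each with its name and leading genes), with exact 95% Poisson intervals, in blue for the library labelled no DOX and orange for that labelled DOX. NEUROD4 is highest in the Beta cell progenitor-like cluster led by CA2 and TAC1, at 175 and 193 CPM, and HES6 in the proliferating cluster.

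NEUROG3, the factor that starts endocrine commitment, was found in few cells. NEUROG3 (ENSG00000122859, chromosome 10, 69571698 to 69573422, minus strand) had 147 UMIs in 83 of 44926 cells, at most 7 in a cell. Among the 6 named classes it was highest in Delta-like cells, at 0.811 CPM (0.543 to 1.16) and 1.2 CPM (0.805 to 1.73), from 29 UMIs in each library that lay in 13 and 11 cells. Among fine clusters the GPC3-led one, at 0.936 CPM (0.606 to 1.38) and 0.367 CPM (0.147 to 0.756), overlapped the Delta-like cluster, at 0.848 CPM (0.572 to 1.21), in the first library. Proliferating progenitor-like cells had 2 UMIs in each library. Levels were 0.33 and 0.139 CPM among Beta cell progenitor-like cells, 0.137 and 0.0961 CPM among Beta-like cells and 0.311 and 0.0194 CPM among Alpha-like cells, with overlapping intervals between neighbours once both libraries were summed. No UMI was found in 153 and 178 Duct-like cells, which allows a share of cells with a UMI of up to 1.96% and 1.69% by the limit of 3 counts and of 2.38% and 2.05% by the exact binomial interval. Thinned to 5000 UMIs, 26 cells of the first library and 16 of the second held a NEUROG3 UMI. Of these, with all classes pooled, 8 (30.8%, 14.3 to 51.8) and 2 (12.5%, 1.55 to 38.3) also held HES6, against 10% and 8.71% of the cells without. HES6 shares ran from 5.9% and 5.44% of Beta-like to 31.6% and 25.7% of Proliferating progenitor-like cells. The part of the mix of classes in this contrast was not tested. For NEUROD4, 1 and 2 of the cells with a NEUROG3 UMI held one, for HES4 3 and 1, and for HES1 1 and 1, too few to place against the other cells.

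The wider pathway showed where the members sit. Lists of 76 genes by role held 66 genes that are not members, of which 55 could be compared between Duct-like cells and the endocrine classes. In Duct-like cells 13 of them (23.6%) were at least 2-fold higher and 16 (29.1%) at least 2-fold lower, beside the 17.2% and 14.8% over all genes. All 3 receptors compared were higher, NOTCH3 being the third, and so were all 7 target genes compared, with HES5, HEY1, HEY2, HEYL and NRARP beside HES1 and HES4, and a list median log2 ratio of 6.24. HES5, another HES repressor, was at 178 and 137 CPM in Duct-like cells and at or under 3.4 CPM elsewhere. HEY1, a related repressor, was at 181 and 106 CPM, and NRARP, a feedback inhibitor that Notch induces, at 34.8 and 35.7 CPM. DLK1, a non-canonical ligand, was at 5911 and 7157 CPM against 38.9 to 695 CPM elsewhere.

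The shared machinery differed less than the receptors and target genes, and with so few genes per list its counts past 2-fold lay near the shares over all genes. Of 8 protease genes, which include those of gamma-secretase, none was at least 2-fold higher in Duct-like cells, against 17.2% of all genes compared. PSEN2 alone was at least 2-fold lower, against 14.8% of all genes, at 3.2 and 6.88 CPM in Duct-like cells and 7.71 to 23.8 CPM elsewhere. APH1A, a gamma-secretase subunit, was at 89.9 and 77.4 CPM there. RBPJ, the DNA-binding partner, was at 134 and 224 CPM against 36.8 to 57.2 CPM, the only 1 of 4 nuclear complex genes past 2-fold in both libraries, while MAML2, a coactivator, was at 32.8 and 21 CPM. Of 20 proneural and commitment factors 14 could be compared. In Duct-like cells 11 of these were at least 2-fold lower, against 14.8% of all genes, and SOX4 alone was higher, against 17.2%.

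**Figure D3:**
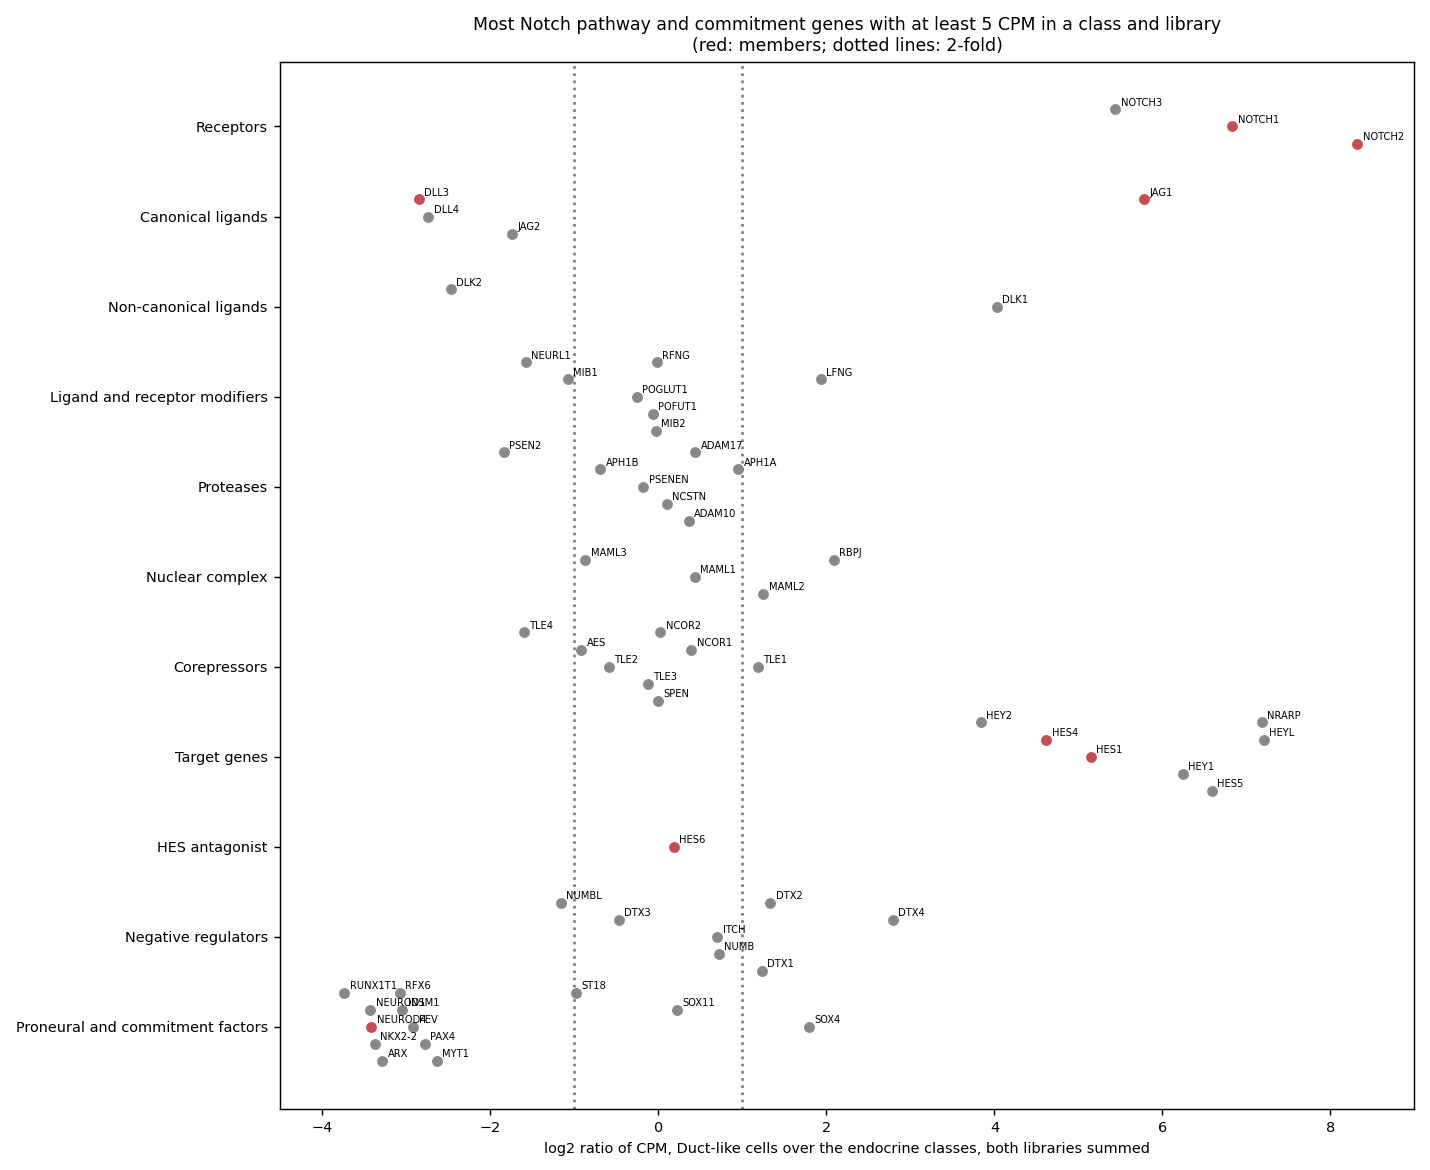
Log2 ratio of Duct-like cells over the endocrine classes (x axis, both libraries summed) for most Notch pathway and commitment genes with at least 5 CPM in a class of a library, by role (y axis, spread within a role only for legibility), members in red. Target genes and receptors lie right of the 2-fold line, most proteases lie within 2-fold with PSEN2 to the left, and most proneural and commitment factors lie left of the 2-fold line.

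Beta cell progenitor-like cells had more RNA of some commitment factors and of the ligand DLL4 than Beta-like cells. Of 13 commitment factors compared with Beta-like cells, 8 were at least 2-fold higher in both libraries, against 24.4% of all genes, and none lower, against 3.4%. The list median log2 ratio was 1.24, where the median of all genes was 0.59. Relative to that median, NEUROD4 and FEV alone of these factors stayed at least 2-fold higher. FEV, a marker of endocrine progenitors, was at 1761 and 1729 CPM against 167 and 134 CPM in Beta-like cells. DLL4, a Delta ligand, was at 20.6 and 22.6 CPM among Beta cell progenitor-like cells and at or under 8.23 CPM in every other class, a pattern unlike those of DLL1 and DLL3. Of 8 corepressors 4 (SPEN, NCOR1, TLE2 and TLE3) were at least 2-fold higher and TLE4 alone lower, beside the 24.4% and 3.4% over all genes, with a list median log2 ratio of 0.92. Relative to the median of all genes, SPEN, NCOR1 and TLE2 fell under 2-fold and TLE3 alone stayed higher, where 7.61% of genes did. TLE3 was at 91.3 and 97 CPM against 18.5 and 15.9 CPM in Beta-like cells, while TLE4 was at 6.67 and 8.61 CPM against 148 and 202 CPM. The E3 ligases that act on ligands, MIB1 and NEURL1, were at 211 and 196 CPM and at 163 and 154 CPM, their highest. Their log2 ratios over Beta-like cells, 1.18 and 1.21, fell under 2-fold relative to the median of all genes. NEURL1 was at 134 and 130 CPM in Alpha-like cells.

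Other genes followed the members across 24 points, 12 fine clusters in each of both libraries. The points share libraries and differ in depth, so r is a description. For the members highest in Duct-like cells r was lower without the Duct-like pair of points, between 0.456 and 0.874. NEUROD4 was most like KCNS3, a potassium channel subunit (Pearson r = 0.970, and 0.970 without the Duct-like points), PLEKHA1 (r = 0.944) and CLMP (r = 0.941). DLL3 was most like ASCL2, a proneural-type factor (r = 0.955, and 0.902 without the Duct-like points), VLDLR-AS1 (r = 0.911) and CNBD2 (r = 0.901). HES6 was most like CCDC82 (r = 0.893), CRNDE (r = 0.891) and HIRIP3 (r = 0.884), DLL1 like AEBP1 (r = 0.817), TMEM132D and FHOD3 (r = 0.759 each), and NEUROG3 like KCTD8 (r = 0.820), GPR6 (r = 0.816) and FRMD3 (r = 0.752). The r of NEUROG3 rests on few UMIs, 147 in all cells kept, with none in either library in the CA2-led and Duct-like clusters.

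For the Duct-like members r fell without the Duct-like points. NOTCH1 was most like SPHK1 (r = 0.988, then 0.762), BIRC3 (r = 0.988) and RHBDF1 (r = 0.984), NOTCH2 like LITAF (r = 0.992, then 0.781), TEAD2 (r = 0.992) and BIRC3 (r = 0.991), and JAG1 like AMOTL2 (r = 0.971, then 0.570), COL4A1 (r = 0.971) and PRSS1 (r = 0.967). HES1 was most like BCL2L12 (r = 0.947, then 0.596), EHF (r = 0.941) and SERPINA5 (r = 0.937), and HES4 like NQO2 (r = 0.941, then 0.874), TUBB6 (r = 0.923) and ZNF695 (r = 0.921). HES1 and HES4 themselves had r = 0.771, and 0.103 without the Duct-like points, whereas DLL1 and NEUROD4 ran opposite with r = -0.797 and -0.846.

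Between the libraries no member reached a 2-fold difference over all cells kept, 0 of the 5 with at least 5 CPM, against 0.124% of 10444 genes. The largest log2 ratio of DOX over no DOX among these 5 was that of HES1, at 12.2 and 15.9 CPM, a log2 ratio of 0.38 (0.32 to 0.44), where the median of all genes was -0.01. HES4 followed with 0.23 (0.19 to 0.26). Duct-like cells, 153 and 178 in number, held 697 of the 3864 and 1409 of the 4828 HES1 UMIs. Over the endocrine classes the log2 ratio was 0.15 (0.08 to 0.23) for HES1 and 0.23 (0.19 to 0.27) for HES4. With every named class weighted equally HES1 was at 0.67 and HES4 at -0.03. DLL3, at 17.8 CPM in each, and NEUROD4, at 22.4 and 22.8 CPM, had log2 ratios of -0.00 and 0.03, and HES6 had -0.08 (-0.13 to -0.03). Among the rare members NEUROG3, with 92 and 55 UMIs, had a log2 ratio of -0.69 (-1.20 to -0.19), of which the Alpha-like cells held 21 UMIs in 11 cells without and 1 UMI in 1 cell with DOX. With every named class weighted equally this ratio was -0.09.

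The HES1 difference was not even across classes. It was 0.73 (0.60 to 0.86) in Duct-like cells, 0.76 (0.56 to 0.96) in Beta cell progenitor-like cells and 0.38 (-0.04 to 0.80) in Proliferating progenitor-like cells. The other classes had 0.28 (0.15 to 0.41) in Alpha-like cells, 0.23 (0.07 to 0.40) in Delta-like cells and 0.09 (-0.03 to 0.21) in Beta-like cells. HES1 UMIs were gathered in few cells: without DOX, 1024 lay in 435 of 7032 Beta-like cells, with up to 23 in a cell. Thinned to 5000 UMIs, 2.72% and 2.7% of Beta-like cells held one. In Proliferating progenitor-like cells 5.26% and 3.43% did, with overlapping intervals, and in the other named classes the share was higher in the second library. In Beta cell progenitor-like cells HES1 alone of the members reached a log2 ratio of 0.5 above, against 0.564% of 10820 genes. In each of the 3 fine clusters that make up most of this class the ratio was smaller than in the class: 0.58 (0.29 to 0.87) in the NTRK3-led, 0.48 (0.15 to 0.80) in the GPC3-led and 0.30 (-0.12 to 0.73) in the CA2-led cluster. The CA2-led cluster, the highest of these in HES1, had 467 cells in the first library and 734 in the second, and the part of such cluster shares in the value for the class was not tested. Within the Beta-like cells the fine clusters differed: the Beta-2-like cluster led by NEFL had 3.84 and 6.57 CPM, a log2 ratio of 0.77 (0.49 to 1.06), while the Beta-1-like cluster led by MFAP4 and IAPP had 9.97 and 8.37 CPM, a log2 ratio of -0.25 (-0.40 to -0.11). Another Beta-1-like cluster, led by metallothionein genes, had 9.28 and 13.8 CPM, a log2 ratio of 0.57 (0.24 to 0.90).

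In Duct-like cells the members did not move together. Of 6 members with at least 20 CPM in a library, HES1 was higher by a log2 ratio of 0.5 or more in the library labelled DOX, against 5.62% of 6073 genes, and JAG1 was lower by as much, against 8.1%. JAG1 had a log2 ratio of -0.66 (-0.92 to -0.39), NOTCH1 of -0.29 (-0.61 to 0.04) and NOTCH2 of 0.25 (-0.09 to 0.59). That of HES4 was -0.12 (-0.21 to -0.04) and that of HES6 -0.34 (-0.90 to 0.22). HES1 UMIs lay in 107 of 153 and 148 of 178 cells, with a median of 155 and 324 CPM per cell. Without the 5 cells that held most of its UMIs in each library, HES1 was at 246 and 422 CPM and JAG1 at 98.8 and 58.7 CPM. With 1 library per condition, the condition, the culture and the library cannot be told apart.

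**Figure D4:**
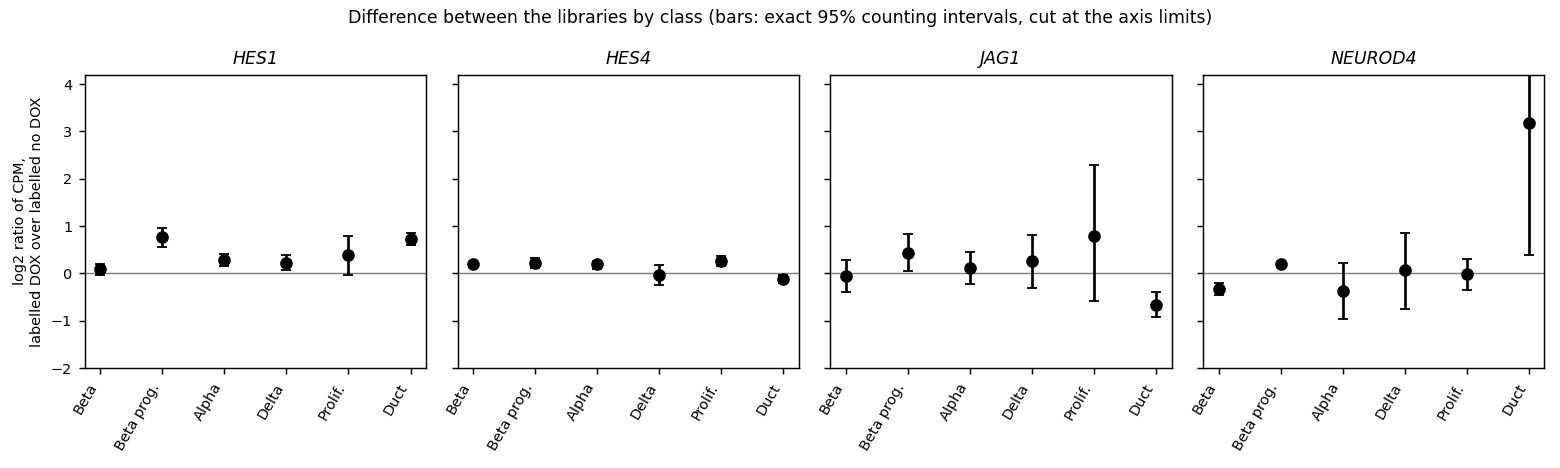
Difference between the libraries as log2 of DOX over no DOX, by label (y axis), for HES1, HES4, JAG1 and NEUROD4 in the 6 named classes (x axis), with exact 95% intervals for counting error, the upper end for NEUROD4 in Duct-like cells lying beyond the axis. HES1 is at 0.73 in Duct-like and 0.76 in Beta cell progenitor-like cells and JAG1 at -0.66 in Duct-like cells.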

How the data were processed

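The 2 libraries of iSOX9KO eBCs were analysed, 1 per condition as labelled. The authors deposited raw UMI counts, a whole number for each gene in each barcode. The file headers name Cell Ranger 3.0.2, the study's methods describe kallisto and bustools, and the submitters' notes name GRCh38. Which of these pipelines gave the counts, and the annotation release, is not given in the sources used here. Positions came from GENCODE 44 by Ensembl identifier.

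Barcodes under 1000 UMIs were dropped, and doublets were removed in each library with Scrublet in scanpy 1.11.5 (7895 and 8338 barcodes, 26.6% and 26.5%). Counts were scaled to 10000 per cell and logged, and 2293 highly variable genes, less 24 genes of the lists described, were corrected for total UMIs and mitochondrial share and entered 50 principal components, 3 neighbours per library and Leiden clustering (leidenalg 0.10.2) at resolution 0.2, and 0.5 for fine clusters. Clusters were named from 12 markers per class that the study took from these libraries: a mean log2 fold of at least 1, at least 3 markers past it, a marker among the 30 leading genes, and no other class with more markers there. A class comparison counts genes past 2-fold in the same direction in both libraries, among genes with at least 5 CPM in either class in each library. In single cells, each cell was thinned to 5000 UMIs and shallower cells left out, and the 95% intervals of shares are those of Clopper and Pearson, from scipy 1.17.1. Where no UMI was found, the limit is that of 3 counts. Cells are not replicates, so no test was made. The intervals and thinning were tried on simulated Poisson and binomial counts. These hold no gathering of UMIs in single cells, so they cannot show how the intervals fare with it.

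The members, lists and comparisons were chosen with earlier results of these data known. Genes named are the members, SOX9, per role list the up to 3 others with at least 10 CPM and the largest ratio of highest over lowest class, and per member the 3 genes with the highest Pearson r of log2(CPM + 1) over fine clusters with at least 100 cells in each library. Genes of a list that were only counted are named after their values were seen, and without values except HEY2, HEYL, LFNG and ADAM17. Some listed genes are counted but not reported by name here. The alternatives tried were no UMI minimum or one of 2000, no doublet removal, a limit of 20% mitochondrial UMIs, listed genes left in the clustering, 15 neighbours without balancing, another seed, resolution 0.5, thinning, every cell or class weighted equally, median scaling, Spearman correlation, and, chosen after seeing the data, leaving out shared barcodes and median scaling between classes. Tables and plots used pandas 2.3.3, numpy 2.4.6 and matplotlib 3.10.9.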

Additional observations from a re-analysis of the deposited data

Results flagged for a closer look

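Members with a log2 ratio of DOX over no DOX that pointed up in one class and down in another, with both counting intervals off 0, are listed here. With 1 library per condition the difference between the classes was not tested. JAG1 was at 0.44 in Beta cell progenitor-like and at -0.66 in Duct-like cells. HES4 was at 0.19 in Beta-like, 0.23 in Beta cell progenitor-like, 0.19 in Alpha-like and 0.27 in Proliferating progenitor-like cells, and at -0.12 in Duct-like cells, where it was 0.01 with doublets kept. NEUROD4 was at 0.20 in Beta cell progenitor-like cells, at -0.33 in Beta-like cells and at 3.17 in Duct-like cells, the last from 1 and 11 UMIs and at -0.76 with doublets kept. Within Beta-like cells it was at -0.64 (-0.85 to -0.43) in the MFAP4-led Beta-1-like cluster, which had 3888 and 6732 cells, and at 0.22 (0.03 to 0.42) in the Beta-2-like cluster, with 2305 and 2430 cells.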

How the results depend on the processing

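The count of 5 members at least 2-fold higher in Duct-like cells and the count of 0 members past 2-fold between the libraries were the same under every alternative run for them. The count of 2 members higher in Beta cell progenitor-like than in Beta-like cells became 1 when ratios were scaled to the median of all genes between these classes, NEUROD4 remaining. Of 527 values recomputed under 17 alternatives, 434 stayed within the interval of the reported value, 91 left it, and 2 ratios of at least 2-fold changed direction. Ratios of Proliferating progenitor-like cells over the endocrine classes were not among the values recomputed. The NEUROD4 log2 ratio between the libraries in Duct-like cells was 3.17 and became -0.76 with doublets kept, when the class grew from 331 to 624 cells. The NEUROG3 log2 ratio of Beta cell progenitor-like over Beta-like cells was 1.07 and became -0.16 at resolution 0.5, where the unnamed cluster led by GPC3, with 25 and 7 NEUROG3 UMIs, stood outside the class. The cause was not tested further. With every named class weighted equally the HES4 log2 ratio between the libraries was -0.03 in place of 0.23, that of HES1 0.67 in place of 0.38, that of JAG1 -0.57 in place of -0.05 and that of NEUROG3 -0.09 in place of -0.69. With doublets kept the Duct-like over endocrine log2 ratio of NEUROD4 was -0.98 in place of -3.42 and that of DLL3 -1.60 in place of -2.85. By Spearman correlation 8 of the 30 most similar genes stayed among the 3 of their member. No paired analysis was possible because each condition has 1 library. Depth limits NEUROG3, DLL1 and the receptors outside Duct-like cells, which rest on few UMIs.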

Other observations

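Other Notch pathway genes of the Duct-like cells had log2 ratios between the libraries in either direction, where, of all genes with at least 20 CPM in a library, 5.62% were higher and 8.1% lower by 0.5 or more. The log2 ratio of DOX over no DOX, by label, was for RBPJ, at 134 and 224 CPM, 0.74 (0.55 to 0.94), and MAML3, a coactivator, had a log2 ratio of 1.06 (0.48 to 1.67). Among target genes, HEY1 had a log2 ratio of -0.78 (-0.99 to -0.57), HES5 of -0.38 (-0.57 to -0.18) and HEY2, at 64.8 and 22.6 CPM, of -1.52 (-1.95 to -1.10). HEYL, at 9.59 and 17.7 CPM, had 0.88 (0.16 to 1.64), while the interval of NRARP, at 0.04 (-0.38 to 0.46), spanned 0. MAML2 had a log2 ratio of -0.64 (-1.14 to -0.15) and DTX4, a negative regulator, of -1.17 (-1.85 to -0.51). TLE3 had 0.74 (0.24 to 1.25), NEURL1 0.60 (0.15 to 1.06), LFNG, a glycosyltransferase that modifies Notch, -1.26 (-2.03 to -0.52) and ADAM17, a protease, -0.80 (-1.39 to -0.23). LFNG, at 18.8 and 7.87 CPM, and HEYL did not reach 20 CPM, so the shares of all genes do not apply to them. The genes given here are examples, and others of the lists also had intervals off 0. DLK1 was higher by 0.28 (0.25 to 0.31). With no replicate library none of these differences was tested.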
